A study of Mus musculus with 32 samples.

Results

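Glia of TAU-P301L mice were compared with glia of their nontransgenic littermates at 16 weeks of age. The material was the cells that surround the motor neurons of the lumbar anterior horn, captured by laser from spinal cord sections. The comparison comprised the 8 arrays whose titles mark TAU glia, out of 32 arrays in the series. They form 4 littermate pairs of the 16 pairs in all, with 2 arrays per pair that differ in which extract carried which dye. The TAU-P301L mice were females labelled B6D2F1-Tg(TAU-P301L), which carry tau with the P301L substitution, and the controls were B6D2F1 females without the transgene. The labels give neither the promoter of the transgene nor the cells in which it is active, and the number of transgene copies is not stated. Further groups were used for reference only. These were motor neurons of TAU-P301L mice and their controls from the same strain at the same age, and glia of B6SJL-Tg(SOD1-G93A)1Gur mice and B6SJL controls at 8 weeks. The SOD1-G93A mice, a model of amyotrophic lateral sclerosis with a mutant superoxide dismutase 1, thus differed from the TAU-P301L mice in transgene, strain and age together.

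Tau is a protein that binds and stabilises microtubules, mostly in axons, and the P301L substitution is a cause of inherited frontotemporal dementia in humans. In mouse models that carry it, tau forms tangles in neurons, and in some models also deposits in astrocytes and oligodendrocytes. Spinal cord glia clear glutamate, provide lactate to neurons, form myelin and carry out immune surveillance. The ATP of the cell comes from glycolysis and from oxidative phosphorylation, in which electrons pass along complexes I to IV of the inner mitochondrial membrane, protons are pumped, and complex V, the ATP synthase, uses the gradient.

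A capture held about 500 cells from 1 mouse, and the RNA was amplified before labelling. Each value below is a log2 ratio of TAU-P301L over control glia, the mean of the 2 arrays of a pair, and a mean is given ± SD over the 4 pairs unless another number is stated. Levels are log2 spot intensities and were compared within a gene only. Of 27573 genes or single probes read, 8907 were well above background in enough extracts to be tested. Pair 1 stood apart before any comparison was made. Its 2 arrays had 4.5% and 17.4% of their spots marked as outliers by the scanner software, against 0.05% to 0.29% on the other 6 arrays, and 1382 of the genes tested had no value in it. The ratios of its dye-exchanged arrays correlated at -0.75 across genes, with opposite signs for 86.6% of the genes tested. The corresponding correlations were 0.12, -0.08 and 0.45 in pairs 2, 3 and 4. Red negative control spots had medians of 358.2 and 378 on the arrays of pair 1, against 51.4 to 76.4 on the other 6. Across genes, the ratios of pair 1 correlated with those of pairs 2, 3 and 4 at 0.13, -0.06 and 0.05. Among pairs 2, 3 and 4 the correlations were 0.3 to 0.48. Each pair mean cancels a dye effect that is equal on both arrays, but does not remove such background. Means without pair 1 are given where that pair decides a value.

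The labelled cell type was checked in the control animals, glia against motor neurons. Of 9883 genes tested there, 261 (2.64%) were higher and 1165 (11.8%) lower in control glia at an adjusted p under 0.05 in limma. Control glia minus control motor neurons, the difference of log2 levels was -2.36 for the neuronal marker Snap25 and -2.22, -1.49 and -1.43 for Calca, Nefl and Nefm. Of 14 motor neuron markers tested 6 were lower and none higher in control glia at that threshold. A difference below 0 was seen in 9 of the 14, which did not exceed the share over all genes tested, 66.2%. The median difference over all genes was -0.19. Rbfox3, Mnx1 and Isl1 read 0.54, 0.46 and 0.18. In the other direction, the difference was 1.46 for the astrocytic glutamine synthetase gene Glul, 1.30 for the myelin protein gene Mag and 0.68 for S100b. The counts rested on single animals, since without replicate 2 no gene passed and without replicate 4 1 gene passed. Among 17 astrocyte markers tested, 2 were higher in glia and the median difference was 0.32, with 6 below 0. Among 14 oligodendrocyte markers 1 was higher, the median difference was 0.27 and 5 were below 0. Astrocyte markers that were not well above background often enough to be tested included Gfap and Fgfr3. In the glial captures 13 of 19 motor neuron markers also passed the detection filter, while Chat, Slc18a3, Ache, Prph, Ret and Mmp9 did not. With a limit at the 95th percentile of negative controls 8 were tested, and 6 with detection in all 8 extracts. The glial and motor neuron arrays also differed in scan and in software version, so cell type and scan cannot be told apart in this check.

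No single gene separated TAU-P301L from control glia at the threshold set. None passed an adjusted p of 0.05 (0%, limma with Benjamini-Hochberg adjustment), and the lowest adjusted p was 0.142. At an unadjusted p under 0.05 there were 1152 genes (12.9%), where 445 would be 5% of those tested. Of these, 424 (4.76%) lay higher and 728 (8.17%) lower in TAU-P301L glia. That balance depended on the scaling, with 595 higher and 474 lower by the scanner software's own log ratio, 567 and 475 by the deposited series matrix, and 637 and 7 under median centring. Leaving out a pair of glia brought 1 gene past the adjusted threshold in 2 cases. These were Smyd2, a protein lysine methyltransferase, at 0.62 without pair 1 (adjusted p = 0.0314, limma) and Psmb4, described with the proteasome below, without pair 3. Over all genes tested the median ratio was 0.003 and 50.9% of means were above 0. Among 7479 genes with a value in every pair, 790 (10.6%) were above 0 in all 4 pairs and 793 (10.6%) below 0 in all 4. Of 7479 genes with a value on all 8 arrays, 59 had a single sign on all of them, 19 above 0 and 40 below 0. Whether 59 is more than random signs would give was not tested, so a single sign is a description only. Ccl19 was the 1 gene tested whose mean ratio reached 2-fold in either direction. The terms higher and lower below describe the sign of a ratio, not a call.

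The largest ratio above 0 among genes with a single sign on all 8 arrays belonged to Prnp. It encodes the prion protein, a glycoprotein of the cell surface, and its promoter is widely used to drive transgenes in mouse brain. The level of Prnp was 11.39, 11.07, 11.28 and 9.28 in TAU-P301L glia of pairs 1 to 4, against 10.37, 10.07, 10.35 and 8.68 in control glia. TAU-P301L glia were higher within each pair, though the ranges of the groups overlapped because both extracts of pair 4 were low. The pair ratios were 1.02, 1.00, 0.93 and 0.60, with a mean of 0.89 ± 0.19 (adjusted p = 0.142, limma). TAU-P301L motor neurons showed 1.08 ± 0.29, and SOD1-G93A glia showed -0.14 ± 0.58 against their own controls. Whether the probe reads the endogenous gene or part of a transgene was not tested.

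The tau gene itself, Mapt, could not be placed. Its brightest probe had levels of 7.89, 9.32, 9.09 and 9.22 in TAU-P301L glia, against 8.85, 8.91, 9.04 and 8.40 in control glia. The pair ratios of -0.96, 0.41, 0.04 and 0.82 had both signs. The mean was 0.08 ± 0.76 (adjusted p = 0.936, limma), and leaving out pair 1 gave 0.43, against -0.03 when pair 2 and -0.17 when pair 4 was left out. In pair 1 the 2 arrays read 0.69 and -2.62. Other Mapt probes gave -0.03 ± 0.17 and 0.09 ± 0.04. No probe sequence was given for this array, so whether these mouse probes detect the transgene is not known here.

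**Figure D1:**
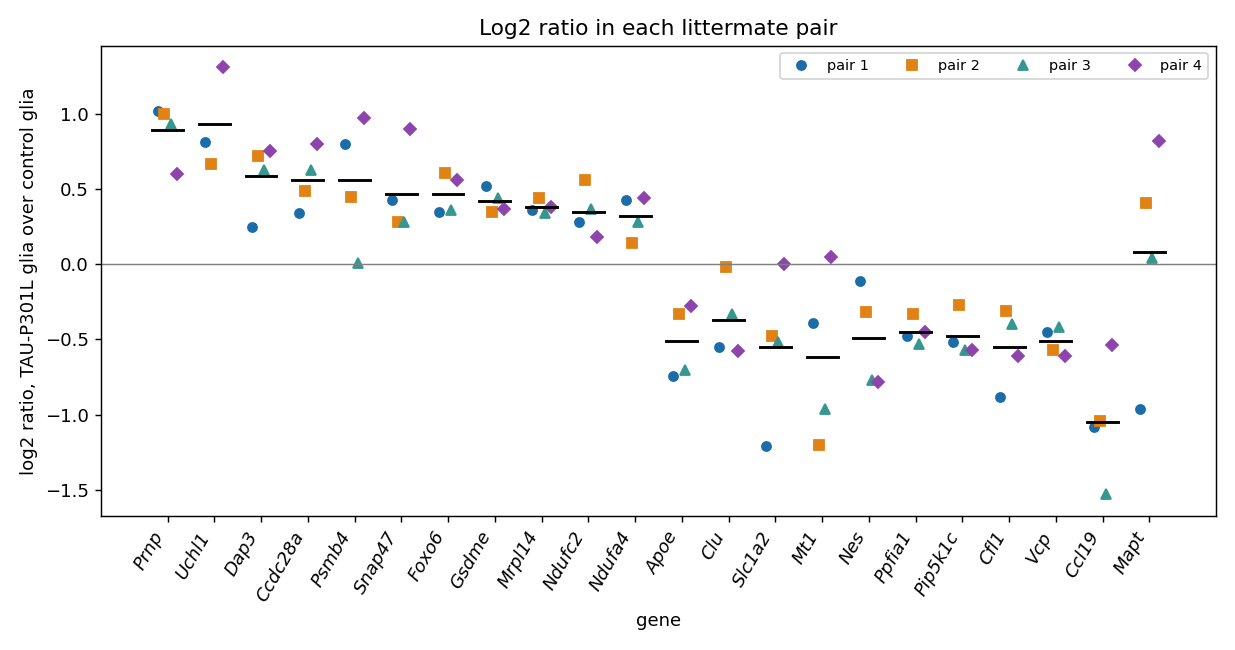
Log2 ratio of TAU-P301L over control glia for 22 genes, with 1 marker for each of pairs 1 to 4 and a black bar at the mean. Prnp lies between 0.60 and 1.02 and Ccl19 between -1.53 and -0.54 in the 4 pairs, while Mapt spans -0.96 to 0.82.

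Genes of oxidative phosphorylation lay mostly on the higher side in TAU-P301L glia. Of 74 genes of complexes I to V tested, 66 had a mean ratio above 0, against 50.9% of all genes tested, and the median was 0.15, against 0.003 over all genes. The pair medians were 0.126, 0.148, 0.106 and 0.155, so each pair showed the same small shift. No single gene of the group passed the adjusted threshold. Of the 74 genes, 10 were higher and 1 lower at an unadjusted p under 0.05, where the shares over all genes tested were 4.76% and 8.17%. Of 70 with a value in every pair 20 were above 0 in all 4, against 10.6% of all genes. The median stayed above 0 under each of the alternatives run, from 0.11 in pairs 3 and 4 alone to 0.51 under median centring, where the median of all genes tested also moved, to 0.071. Median centring was a weak check here, since it also moved the cytosolic ribosome genes from a median of -0.04 to 0.26.

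Complex I, the NADH dehydrogenase, had 30 of its 31 genes tested above 0, with a median of 0.16 and pair medians of 0.11, 0.13, 0.11 and 0.23. Ndufc2, an accessory subunit, had levels of 7.41, 7.91, 7.91 and 6.39 in TAU-P301L glia, against 7.13, 7.34, 7.54 and 6.21 in control glia. TAU-P301L glia were higher in every pair while the ranges of the groups overlapped, and the mean was 0.35 ± 0.16 (adjusted p = 0.26, limma). Ndufs7, a core subunit that carries an iron-sulphur cluster, had ratios of 0.95, 0.15, 0.09 and 0.45, a mean of 0.41 ± 0.39. The core subunit Ndufs3 averaged 0.27 ± 0.21, the flavoprotein Ndufv1 0.20 ± 0.14, and the accessory subunits Ndufa9 and Ndufb6 0.30 ± 0.21 and 0.34 ± 0.18. Ndufa8 showed 0.15, 0.10, 0.16 and 0.97, so that pair 4 supplied most of its mean of 0.34 ± 0.42.

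The other complexes had medians from 0.06 to 0.14. In complex IV, cytochrome c oxidase, 9 of 13 genes were above 0 with a median of 0.14, which was 0.07 without pair 1. Ndufa4, a subunit of complex IV despite its name, had levels of 11.93, 11.80, 11.22 and 11.26 in TAU-P301L glia, against 11.50, 11.65, 10.94 and 10.81 in control glia. Its ratio was above 0 in all pairs and averaged 0.32 ± 0.14 (adjusted p = 0.259, limma). Complex III had 9 of 10 genes above 0 with a median of 0.14, and complex II 2 of 3 with a median of 0.06. Complex V had 16 of 17 above 0 with a median of 0.14, which was 0.07 in pairs 3 and 4 alone. Atp5g3, which encodes a subunit of the rotor ring, had ratios of 0.07, 0.57, 0.44 and 0.08 and averaged 0.29 ± 0.25. The exception was Atp5h, a subunit of the stalk, which read -0.19, -0.32, -0.08 and -0.14 in the 4 pairs, a mean of -0.18 ± 0.10 that turned to 0.23 under median centring.

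Promoters of these nuclear genes were searched because the group lay on 1 side together. The windows printed below are examples taken from genes whose window holds the site sought. They do not stand for their lists, in which most windows had no match, as counted below. Each window runs from 250 bases before to 50 bases after the start of the gene, 5′ to 3′ on the strand of the gene, from RefSeq on GRCm38.p6. The windows were searched on both strands for GCGCA followed by any 1 base and GCGC, a form of the site bound by NRF1, a transcription factor known for its sites in genes of the respiratory chain. The match is in capitals. Ndufa8 lies at chr2:36049289-36049588 on the minus strand, Atp5g3 at chr2:73911277-73911576 on the minus strand, and Mrpl14, a gene of the mitochondrial ribosome described below, at chr17:45686099-45686398 on the plus strand.
Ndufa8: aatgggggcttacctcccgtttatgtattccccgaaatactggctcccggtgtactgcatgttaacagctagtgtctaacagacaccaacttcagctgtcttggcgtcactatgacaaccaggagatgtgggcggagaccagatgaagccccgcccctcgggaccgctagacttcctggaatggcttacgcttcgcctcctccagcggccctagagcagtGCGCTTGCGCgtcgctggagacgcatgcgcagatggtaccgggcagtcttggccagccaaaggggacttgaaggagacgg
Atp5g3: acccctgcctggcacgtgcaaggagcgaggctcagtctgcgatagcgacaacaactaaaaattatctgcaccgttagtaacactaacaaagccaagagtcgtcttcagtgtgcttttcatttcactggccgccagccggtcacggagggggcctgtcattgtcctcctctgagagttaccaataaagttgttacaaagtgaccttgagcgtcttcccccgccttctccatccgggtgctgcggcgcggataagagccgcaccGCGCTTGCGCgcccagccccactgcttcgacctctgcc
Mrpl14: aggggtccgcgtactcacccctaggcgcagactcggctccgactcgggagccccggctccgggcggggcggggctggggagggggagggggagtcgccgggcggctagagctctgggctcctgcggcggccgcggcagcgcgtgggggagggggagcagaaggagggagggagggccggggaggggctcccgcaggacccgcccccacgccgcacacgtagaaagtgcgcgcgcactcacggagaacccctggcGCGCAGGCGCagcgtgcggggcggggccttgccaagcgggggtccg
The motif began at base 221 of the Ndufa8 window, base 263 of Atp5g3 and base 255 of Mrpl14. It was present in 17 of the 62 genes of complexes I to V that had a window (27.4%), in 7 of 15 of complex V (46.7%) and in 6 of 28 of complex I (21.4%). The share was 16.7% for the mitochondrial ribosome (9 of 54) and 5.88% for the cytosolic ribosome (3 of 51). It was 10.3% of the 6195 tested genes with a window and 5.19% of the 27025 genes in the table. These shares describe the letters in the windows and say nothing of binding.

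The enzymes that feed the respiratory chain lay mostly above 0 as well. Of 14 genes of the citric acid cycle tested, 13 were above 0 with a median of 0.13, though the pair medians were -0.05, 0.13, 0.17 and 0.11, with pair 1 below 0. Mdh2, the mitochondrial malate dehydrogenase, had levels of 12.92, 12.28, 11.92 and 11.96 in TAU-P301L glia, against 12.48, 12.17, 11.75 and 11.55 in control glia. TAU-P301L glia were higher in each pair, by 0.28 ± 0.16 on average. In glycolysis 12 of 13 genes were above 0 with a median of 0.12. The aldolase gene Aldoa read 0.42, 0.30 and 0.52 in the 3 pairs with a value, and a second probe averaged 0.16 ± 0.26. The other aldolase, Aldoc, which is typical of astrocytes, was the exception with -0.30 ± 0.13, and it turned to 0.13 under median centring. Cisd1, an iron-sulphur protein of the outer mitochondrial membrane, was above 0 on all 8 arrays and averaged 0.40 ± 0.20 (adjusted p = 0.198, limma).

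Mitochondrial ribosome genes lay above the median of all genes, and their place relative to cytosolic ribosome genes depended on the scaling. The mitochondrial ribosome translates the respiratory chain subunits encoded in mitochondrial DNA. Of its 61 genes tested, 54 were above 0 with a median of 0.11, 13 were higher and none lower at an unadjusted p under 0.05 (4.76% and 8.17% of all genes tested), and 19 of 56 were above 0 in all 4 pairs (10.6% of all genes). Its pair medians were 0.09, 0.10, 0.10 and 0.19. Dap3, a protein of the small subunit, had levels of 9.05, 8.55, 9.10 and 8.41 in TAU-P301L glia, against 8.80, 7.83, 8.47 and 7.66 in control glia. Its ratios of 0.25, 0.72, 0.63 and 0.75 averaged 0.59 ± 0.23 (adjusted p = 0.142, limma), beside 0.54 ± 0.22 in TAU-P301L motor neurons. Mrpl14, of the large subunit, had even pair means of 0.36, 0.44, 0.34 and 0.38, a mean of 0.38 ± 0.04 (adjusted p = 0.188, limma). The 2 arrays of pair 1 were unlike, however, at 0.76 and -0.05. Mrps34 of the small subunit was above 0 on all 8 arrays and averaged 0.40 ± 0.27. Of 72 genes of the cytosolic ribosome 29 were above 0 with a median of -0.04. Under median centring all 72 were above 0 with a median of 0.26, beside 0.25 for the mitochondrial ribosome. Of the 72 genes, 2 were higher and none lower at an unadjusted p under 0.05, against 4.76% and 8.17% of all genes tested. The 2 were Rpl7a and Rpl15, with 0.33 ± 0.34 and 0.15 ± 0.15.

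**Figure D2:**
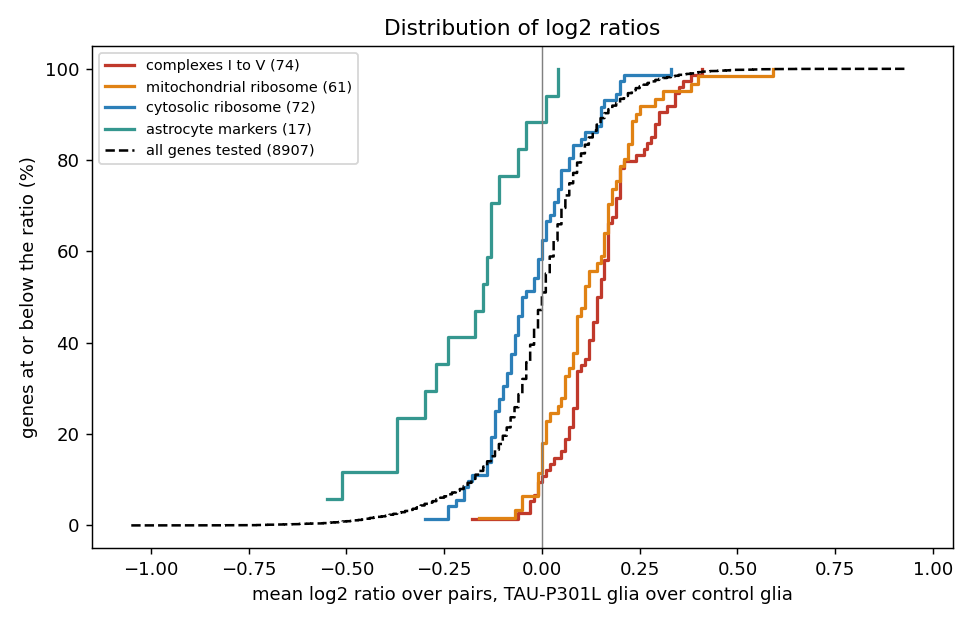
Cumulative percentage of genes against the mean log2 ratio of TAU-P301L over control glia, for complexes I to V (74 genes), the mitochondrial ribosome (61), the cytosolic ribosome (72), astrocyte markers (17) and all 8907 genes tested (dashed). The curves of complexes I to V and of the mitochondrial ribosome lie right of the dashed curve, with medians of 0.15 and 0.11, and that of the astrocyte markers lies left of it, with a median of -0.15 that was 0.04 under median centring.

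Protein turnover genes were mixed. The proteasome core, the barrel that cuts ubiquitin-tagged proteins, had 8 of 9 genes above 0 with a median of 0.23, and pair 1 had the highest pair median of 0.56. Psmb4 had levels of 10.39, 10.44, 9.93 and 9.31 in TAU-P301L glia, against 9.59, 9.99, 9.92 and 8.34 in control glia. Pair 3 showed no difference, at 0.01, and the mean was 0.56 ± 0.43 (adjusted p = 0.187, limma). Without pair 3 it was 0.74 with an adjusted p of 0.0145. The exception in the core was Psmb2, at -0.27 ± 0.25. In the regulatory cap 13 of 15 genes were above 0 with a median of 0.13, which was 0.05 without pair 3. Ubiquitin pathway genes were less one-sided, with 14 of 19 above 0 and a median of 0.06, which was -0.01 without pair 2. Uchl1, an abundant neuronal deubiquitinase, had levels of 12.80, 12.26 and 12.87 in TAU-P301L glia of pairs 1, 2 and 4, against 11.99, 11.58 and 11.55 in control glia. The ranges did not overlap, and the mean was 0.93 ± 0.34 over 3 pairs (adjusted p = 0.242, limma). Sqstm1, an autophagy receptor for ubiquitinated cargo, read 0.18, 0.20, 0.11 and 1.11. Vcp, the ATPase that extracts ubiquitinated proteins, lay on the other side, below 0 on all 8 arrays. Its levels were 8.80, 9.53, 10.11 and 8.68 in TAU-P301L glia, against 9.24, 10.10, 10.53 and 9.29 in control glia, and the mean ratio was -0.51 ± 0.09 (adjusted p = 0.213, limma).

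Among chaperones, 19 of 25 genes were above 0 with a median of 0.09. Dnajb1, a partner of Hsp70, averaged 0.47 ± 0.44 and the Hsp90 gene Hsp90aa1 0.30 ± 0.28, while Hsf1, the transcription factor that drives heat shock genes, averaged -0.54 ± 0.56 and turned to 0.05 under median centring. Lysosome and autophagy genes were balanced, with 15 of 27 above 0 and a median of 0.02. Within them Atp6v1d, a subunit of the proton pump of lysosomes, read 0.47, 0.50 and 0.51 in pairs 2 to 4 and had no value in pair 1. Gabarapl1, which acts in autophagosome formation, read 0.34, 0.49 and 0.33 in the same pairs. Genes of the endoplasmic reticulum stress response were divided, with 7 of 14 above 0 and a median of -0.02. Asns, the asparagine synthetase, averaged 0.44 ± 0.11 and Sesn2, a stress-induced inhibitor of growth signalling, -0.35 ± 0.23. Of 23 antioxidant genes 15 were above 0, among them Gstp1 with 0.86, 0.05 and 0.50 in 3 pairs, while the metallothionein Mt1 averaged -0.62 ± 0.56. Genes of cholesterol synthesis (11 of 18 above 0), tau kinases and phosphatases (11 of 18) and motor proteins (9 of 20) had medians between -0.01 and 0.05.

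**Figure D3:**
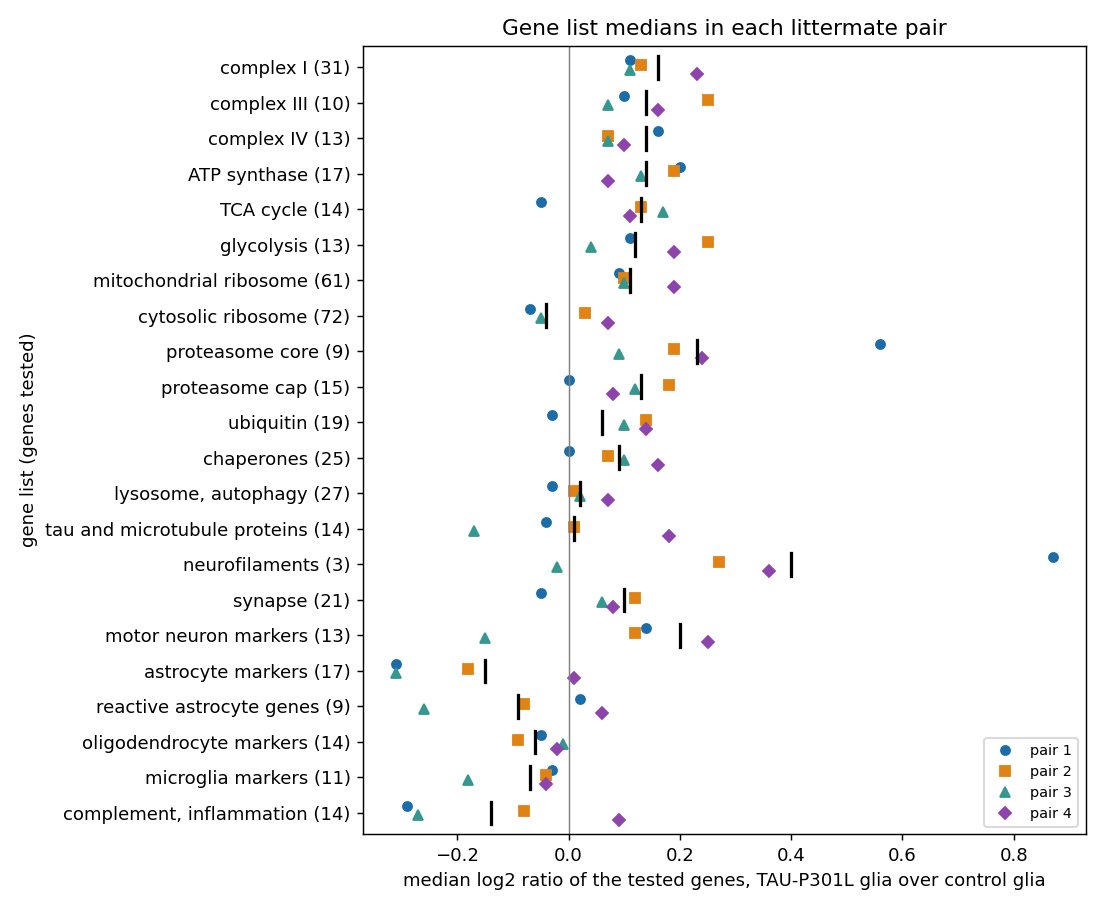
Median log2 ratio of TAU-P301L over control glia for 22 gene lists, with a marker for each of pairs 1 to 4, a black bar at the median of the gene means and the number of genes tested in brackets. Complex I lies between 0.11 and 0.23 in the 4 pairs, and the astrocyte markers lie between -0.31 and 0.01.

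Among genes typical of neurons some lay higher in TAU-P301L glia and others did not, and pair 1 was the highest for Nefl, Nefh, Syn2, Stmn2 and Stmn3. The 3 neurofilament genes tested were above 0 with a median of 0.40, which was 0.21 without pair 1 and 0.17 in pairs 3 and 4 alone. Nefl read 0.98, 0.26, -0.02 and 0.36 and Nefh 0.87, 0.47, -0.23 and 0.53, so both had 1 pair below 0 and neither reached an unadjusted p of 0.05. Syn2, a synaptic vesicle protein, had levels of 7.64, 8.41, 8.47 and 7.60 in TAU-P301L glia, against 6.73, 7.87, 8.19 and 7.37 in control glia. It was above 0 on all 8 arrays, as was Stmn2, a tubulin-binding protein of growing axons, and their means were 0.48 ± 0.31 and 0.43 ± 0.23. Stmn3, its relative, read 0.68, 0.48, 0.13 and 0.08. Of 13 motor neuron markers tested, 9 were above 0 with a median of 0.20, which was 0.09 without pair 1, and the pair medians included -0.15 in pair 3. Interneuron markers had 3 of 7 above 0 and a median of -0.03, which was 0.10 without pair 1 and 0.11 under median centring. The summed level of the motor neuron markers was 12.60 to 13.69 in TAU-P301L glia and 12.20 to 13.45 in control glia. Synapse genes had 17 of 21 above 0 and a median of 0.10. Genes of complexes I to V were also lower in control glia than in control motor neurons, with 16 of 79 lower and 1 higher at an adjusted p under 0.05 (11.8% and 2.64% of all genes) and a median difference of -0.37, against -0.19 over all genes. The part of neuronal RNA in the shift of complexes I to V was not tested.

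**Figure D4:**
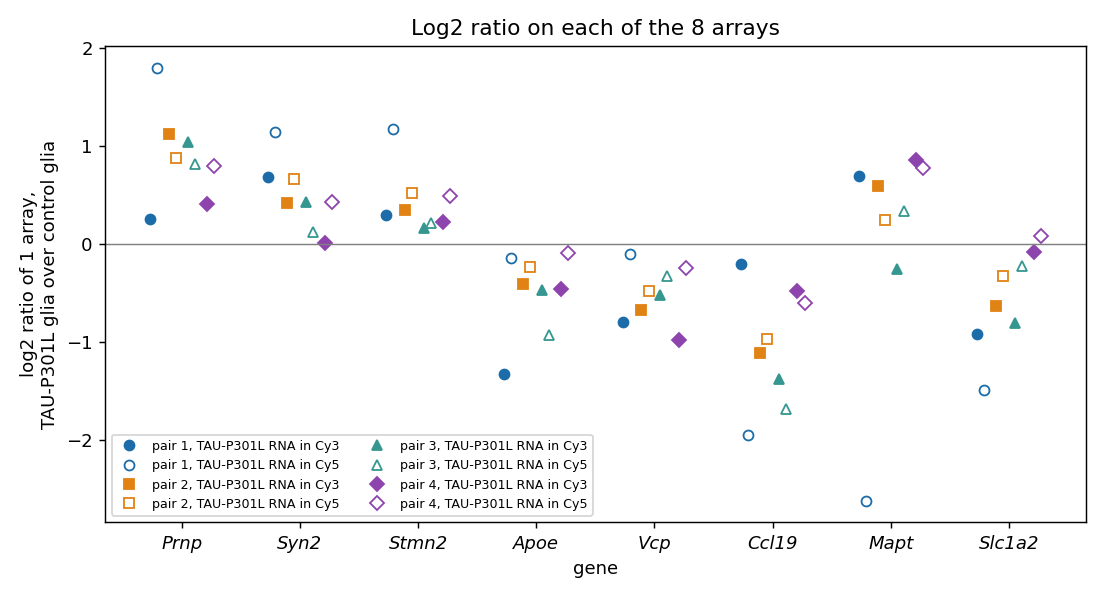
Log2 ratio of TAU-P301L over control glia on each of the 8 arrays for 8 genes, with filled markers where TAU-P301L RNA was in Cy3 and open markers where it was in Cy5. Prnp, Syn2 and Stmn2 lie above 0 and Apoe, Vcp and Ccl19 below 0 on all 8 arrays, while the 2 arrays of pair 1 read 0.69 and -2.62 for Mapt.

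Astrocyte genes lay lower in TAU-P301L glia after loess normalization, though not after median centring. Of 17 astrocyte markers tested, 2 were above 0, against 50.9% of all genes tested, and the median was -0.15. Under median centring, however, 9 of 17 were above 0 with a median of 0.04. The pair medians were -0.31, -0.18, -0.31 and 0.01, so pair 4 did not share the shift. Of 16 genes with a value in every pair, 6 were below 0 in all 4, against 10.6% of all genes. At an unadjusted p under 0.05 (limma), 3 of the 17 were lower and none higher, where the shares over all genes tested were 8.17% and 4.76%. The summed level of the list was 13.70 to 14.13 in TAU-P301L glia and 13.86 to 14.60 in control glia. Fewer cells of a type and less RNA in each cannot be told apart in captures of this kind. Apoe, the main lipid carrier that astrocytes secrete, had levels of 9.98, 10.75, 10.51 and 9.77 in TAU-P301L glia, against 10.72, 11.07, 11.21 and 10.04 in control glia. It was below 0 on all 8 arrays, and the mean was -0.51 ± 0.24 (adjusted p = 0.318, limma). The glutamate transporter gene Slc1a2 read -1.21, -0.48, -0.52 and 0.00, a mean of -0.55 ± 0.49, while another of its probes averaged -0.02. Clu, a secreted chaperone, averaged -0.37 ± 0.26 and turned to 0.10 under median centring. Glul had both signs, from -0.65 to 0.49. S100b averaged -0.06 ± 0.41, and both genes turned above 0 under median centring, to 0.32 and 0.49.

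Markers of other cell types lay on either side of 0. Of 14 oligodendrocyte markers 10 were below 0 with a median of -0.06, and the sign of that median turned to 0.07 under median centring. Olig2, a transcription factor of the lineage, averaged -0.21 ± 0.06. Of 11 microglia markers 9 were below 0 with a median of -0.07, which turned to 0.03 under that centring. Csf1r, the receptor on which microglia depend, averaged -0.19 ± 0.15. In the deposited series matrix the astrocyte, oligodendrocyte and microglia medians were each -0.21. Markers of oligodendrocyte precursors had 3 of 4 above 0 with a median of 0.18, which was 0.03 without pair 1, and markers of Schwann cells and meninges had 1 of 6 above 0 with a median of -0.25, which was -0.10 without pair 3. Reactive astrocyte genes had 7 of 9 below 0 and a median of -0.09, which was 0.01 without pair 3. In this list Nes, an intermediate filament gene, was below 0 on all 8 arrays with -0.49 ± 0.33, and S100a10, an annexin partner, lay above 0 with 0.41 ± 0.35. Complement and inflammation genes had 12 of 14 below 0 and a median of -0.14. Haemoglobin Hbb-bt, a sign of blood in a capture, read -0.99, -0.81, -0.93 and 0.05, and Hba-a1 was below 0 on all 8 arrays with -0.25 ± 0.13.

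The largest ratio below 0 among genes with a single sign on all 8 arrays belonged to Ccl19, a chemokine that attracts lymphocytes and dendritic cells. Its levels were 6.05, 6.77, 6.03 and 7.01 in TAU-P301L glia, against 7.13, 7.81, 7.56 and 7.55 in control glia. The ranges did not overlap, and the mean was -1.05 ± 0.40 (adjusted p = 0.213, limma), beside -1.38 ± 0.41 in TAU-P301L motor neurons. Ccl19 and Vcp lie on chromosome 4, as do Galt, Ccl27a and Dctn3, which averaged -0.21, -0.11 and -0.18, the last of these turning to 0.26 under median centring. Foxo6, also on chromosome 4, averaged 0.47 ± 0.13, and the signs of all genes of that chromosome were not counted. Rpusd3, Klrb1c, Kdm8, Zfp280c, Htr3a and Naip6 were the next with a single sign, at -0.73 to -0.62, together with Ndrg1 at -0.63 ± 0.24, a gene expressed in myelinating glia. Rpusd3 read -0.73, -1.13, -0.53 and -0.52 in the 4 pairs and Klrb1c -0.78, -1.13, -0.52 and -0.40. The genes from Rpusd3 to Naip6 moved alike, each lowest in pair 2. In pair 2 of SOD1-G93A glia they read 1.94 to 2.33. Rpusd3 averaged 0.72 ± 1.06 in SOD1-G93A glia, where its pairs read 0.35, 2.25, -0.21 and 0.47. The arrays of that SOD1-G93A pair 2 had 9.3% and 6.23% of spots marked as outliers and shared a scan with TAU-P301L pair 1. Their red negative control spots had medians of 234.7 and 260.3, against 56.4 to 74.5 on the other SOD1-G93A glia arrays. Whether the probes of these genes read separate transcripts was not tested.

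By p rather than size, smaller ratios led, and in several of these the even pair means hid unlike arrays in pair 1 or pair 3. Ppfia1, which encodes liprin-alpha1, a scaffold at cell adhesions, read -0.48, -0.33, -0.53 and -0.45, a mean of -0.45 ± 0.08 (adjusted p = 0.142, limma). Its arrays of pair 3 read 0.07 and -1.13. Pip5k1c, a lipid kinase of adhesions and synapses, averaged -0.48 ± 0.15 and the actin-severing protein gene Cfl1 -0.55 ± 0.25, the second of these below 0 on all 8 arrays. Pip5k1c read 0.16 and -1.31 on the arrays of pair 3, and its mean turned to 0.01 under median centring. On the other side, Ccdc28a read 0.34, 0.49, 0.63 and 0.80 and was above 0 on all 8 arrays, and Esd, an esterase, read 0.69, 0.53, 0.12 and 0.47. The transcription factor gene Foxo6 averaged 0.47 ± 0.13, with 1.01 and -0.32 on the arrays of pair 1. Pigp, which acts in synthesis of membrane anchors, averaged 0.36 ± 0.11, with 1.94 and -0.91 on those arrays. Cdc16, a subunit of the anaphase-promoting complex, averaged 0.38 ± 0.14, with 2.45 and -2.09. Gsdme, a pore-forming protein gene, averaged 0.42 ± 0.08, with 2.91 and -1.88, and a further probe averaged -0.02 ± 0.29. The adjusted p of these genes was 0.142 to 0.188 (limma).

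The ratios of TAU-P301L glia were then set against those of TAU-P301L motor neurons, by the difference of the 2 means in 1 fit. Of 8398 genes tested 411 (4.89%) reached an unadjusted p of 0.05 and none an adjusted p of 0.05 (0%, limma), with a lowest adjusted p of 0.93. For complexes I to V, 39 of 81 genes were above 0 in motor neurons with a median of -0.01. The difference, glia minus motor neurons, was above 0 for 59 of 74 genes with a median of 0.15, against 51.5% of all genes. Ndufa4 differed by 0.40 ± 0.14 (SE) and Atp5g3 by 0.56 ± 0.20 (SE), with ratios of -0.08 and -0.27 in motor neurons. The smallest p values on the higher side belonged to Cdc16, Gsdme, Atp5a1, Slc25a11 and Slc25a25, of which Atp5a1 had values in 2 and Slc25a11 in 3 glia pairs, and on the lower side to Gtf2h2, Ppfia1, 2810459M11Rik, Pabpn1 and Apln. Prnp differed by -0.20 ± 0.25 (SE) between the cell types.

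Against SOD1-G93A glia, the difference of ratios had 538 of 8424 genes (6.39%) at an unadjusted p of 0.05, none at an adjusted p of 0.05 (0%, limma) and a lowest adjusted p of 0.412. In SOD1-G93A glia 36 of 76 genes of complexes I to V were above 0 with a median of -0.01. The difference, TAU-P301L minus SOD1-G93A, was above 0 for 62 of 74 with a median of 0.14, against 48.5% of all genes. Mrpl14 differed by 0.46 ± 0.12 (SE) and Prnp by 1.02 ± 0.25 (SE). The glutathione transferase gene Gstp1, with 0.47 ± 0.41 in 3 pairs of TAU-P301L glia and -0.39 ± 0.10 in SOD1-G93A glia, led this difference, which was 1.07 with an adjusted p of 0.00807 (limma) without TAU-P301L pair 2, where it rests on pairs 1 and 4 because pair 3 had no value. Aldoa, Snap47, Nup54 and Esd followed on the higher side, and Slc6a6, Myh14, Snx27, Ank3 and Gabrd were the smallest p values on the lower side. Slc1a2 differed by -1.16 ± 0.35 (SE), with 0.60 ± 0.79 in SOD1-G93A glia. Pair 2 of SOD1-G93A glia, with the outlier marks and red background given above, was part of this comparison. Without that pair 402 genes reached an unadjusted p of 0.05 and none an adjusted p of 0.05 (limma).

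**Figure D5:**
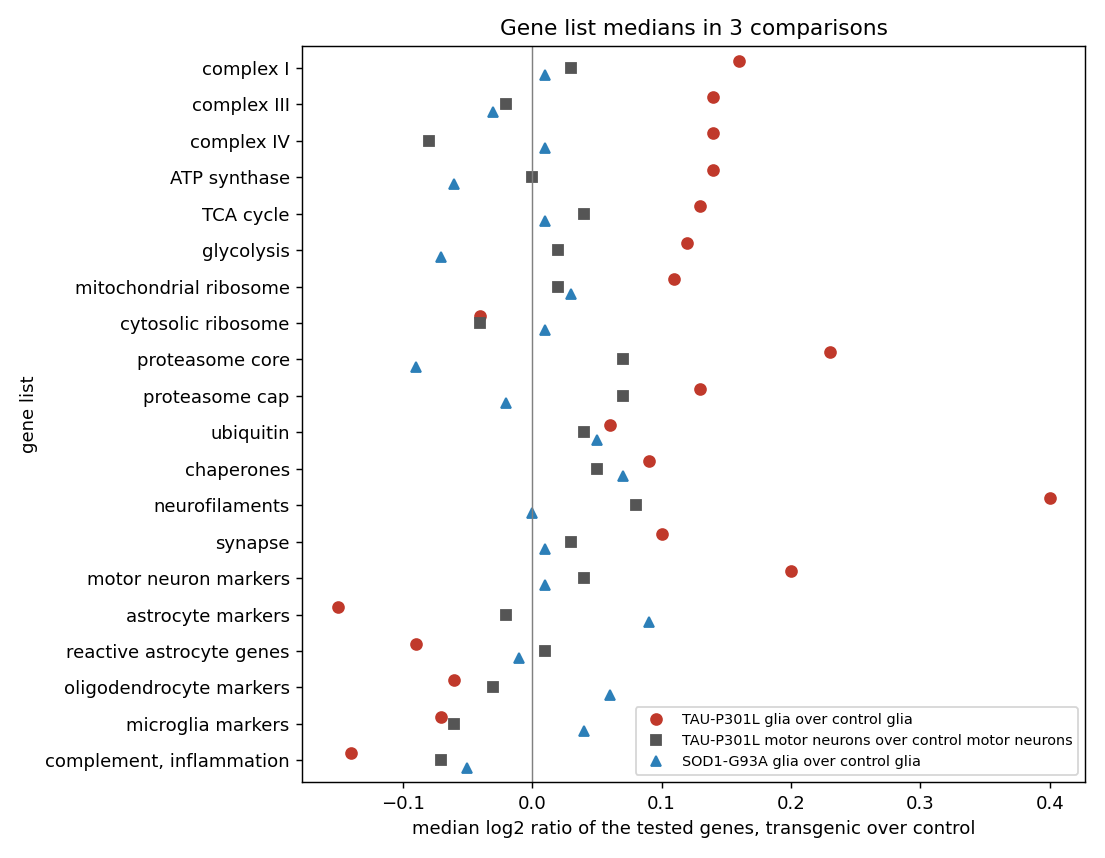
Median log2 ratio of transgenic over control for gene lists in TAU-P301L glia, TAU-P301L motor neurons and SOD1-G93A glia. Complex I lies at 0.16 in TAU-P301L glia, 0.03 in TAU-P301L motor neurons and 0.01 in SOD1-G93A glia. Complex IV lies at 0.14, -0.08 and 0.01 in the same order.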

How the data were processed

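Lumbar spinal cord sections of 12 µm were stained with cresyl violet, about 500 cells per mouse were taken with a PixCell IIe laser, and RNA was amplified and labelled with kits for small inputs, per the labels' protocols. The deposited scanner files hold the spot intensity of each dye and the log10 ratio of red over green, made by the authors with Agilent Feature Extraction. The submitters' processing notes give version 8.5.1.1, as do the headers of the motor neuron files, while the headers of the glia files give 9.5.1.1. The deposited series matrix holds the log10 ratios turned to transgenic over control (absolute correlation with the scanner ratio of 0.982 to 0.999), and was used as an alternative.

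Intensities were background-corrected by normexp (offset 50) and turned to log2 ratios, with loess within each array, in limma 3.58.1 under R 4.3.3. Control spots had weight 0 and spots with an outlier mark were left out. Ratios were turned by dye, the 2 arrays of each pair were averaged, and a pair that lacked either array was missing. The brightest probe stood for its gene, and other probes are given where they disagreed. Testing required a signal well above background, on each of the 2 arrays, for at least 4 of 8 extracts, and values in at least 2 pairs. The 16 pairs of the 4 comparisons of the series shared 1 limma fit, with Benjamini-Hochberg adjustment at 0.05. Control glia and control motor neurons were compared over single-channel log2 intensities after Aquantile normalization. The number of arrays limits the precision, and p-values measure the spread between littermate pairs. That spread is pooled over all 16 pairs of the shared fit, so it can differ from the SD of the 4 glia pairs. Psmb4, for example, had an SD of 0.43 in TAU-P301L glia, against 0.12 in TAU-P301L motor neurons and 0.13 in SOD1-G93A glia. The fit was run on simulated data, where it called 76 of 100 log2 changes of 0.5 and 99 of 100 of 1, with 16 false calls. The simulated noise was independent between pairs with 1 spread per gene in all groups. It is simpler than these data, so the counts do not carry over to them.

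Genes were named by a rule: Mapt and Prnp, the 12 smallest p in each direction with 1 sign in all 4 pairs, the 8 largest means in each direction with 1 sign on all 8 arrays, members of 36 gene lists (9 of cell type markers, 27 of functions), and the 5 smallest p of each difference. Smyd2 was named after its value was seen. A few list members are not reported here. The comparison and the lists were chosen with earlier results of these data known. Promoters are RefSeq windows on GRCm38.p6, matched by symbol. Each slide held 1 array, so slide was no batch. The glia pairs lay in different scans, with pairs 3 and 4 together in 1 scan, and a fit with scan as a random block was an alternative, not the fit reported.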

Additional observations from a re-analysis of the deposited data

Results flagged for a closer look

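In 7 values a single pair lay far from the other 3, by Dixon's criterion for 4 values; 136 values were examined, of which chance would give 6.8. The histone gene H2bu2 read 1.15 in pair 1, against 0.21 to 0.32 in the others. Ndufa8 of complex I read 0.97 in pair 4, against 0.10 to 0.16, and the autophagy receptor gene Sqstm1 read 1.11 in pair 4, against 0.11 to 0.20. Haemoglobin Hbb-bt was 0.05 in pair 4 and -0.99 to -0.81 elsewhere. Galt read -0.46 in pair 3, against -0.13 to -0.12. The median of the mitochondrial ribosome was 0.19 in pair 4, against 0.09 to 0.10, and that of the microglia markers -0.18 in pair 3, against -0.04 to -0.03. Their cause was not tested.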

How the results depend on the processing

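The medians of complexes I to V, complex I, the mitochondrial ribosome and the proteasome core stayed above 0 under every alternative run, while the astrocyte median turned to 0.04 under median centring. Median centring, which leaves any trend with brightness in the ratios, moved complex I to 0.52, complexes I to V to 0.51, the proteasome core to 0.60 and the mitochondrial ribosome to 0.25. It also moved the cytosolic ribosome from -0.04 to 0.26, so it was a weak check on medians above 0. The mitochondrial ribosome stood at 0.17 with an offset of 16, 0.27 with the software's ratio and 0.29 with the deposited matrix. Complexes I to V stood at 0.18 with the software's ratio, 0.11 in pairs 3 and 4 alone and 0.13 to 0.17 with 1 TAU-P301L glia pair left out.

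The 1152 genes at an unadjusted p under 0.05 became 644 under median centring, 712 with detection in all 8 extracts (of 2875 tested) and 619 to 1347 with 1 pair left out, with 0 to 1 gene at the adjusted threshold. The share of higher among these calls was 36.8%, against 26.7% with detection in all 8 extracts and 55.5% without pair 3. Against TAU-P301L motor neurons the 411 genes became 133 with detection in all 8 extracts, 1001 without a filter on dim probes and 280 to 635 with a pair left out, and 0 to 1 gene passed the adjusted threshold (Smyd2, 0.82 without glia pair 1). Against SOD1-G93A glia the 538 became 349 without background correction, 121 under median centring, 218 with detection in all 8 extracts, 1072 without the filter and 402 to 747 with a pair left out, with 0 to 1 gene past the adjusted threshold. The 1426 genes between control glia and control motor neurons became 56 with detection in all 8 control extracts and 0 to 1069 with a replicate left out.

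Replicate numbers recur across groups, but same-numbered pairs did not deviate together throughout (r from 0.07 to 0.29 with motor neurons, -0.17 to 0.32 with SOD1-G93A glia, -0.07 to 0.52 between control cell types). With the replicate number as a block, the counts were 697, 512 and 1490.

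Under median centring the sign also turned for the oligodendrocyte (0.07) and microglia (0.03) medians and for Muc6 (0.03), Apln (0.05, and 0.04 as a difference from motor neurons), Pip5k1c (0.01), Atp5h (0.23), Aldoc (0.13), Clu (0.10), Mbp (0.10), Sox10 (0.01), Ctss (0.01), Hsf1 (0.05), Dctn3 (0.26), Glul (0.32) and S100b (0.49). Dctn3 was 0.16 in pairs 3 and 4 alone, and with 1 pair left out Mapt ranged from -0.17 to 0.43, Glul from -0.33 to 0.05 and S100b from -0.21 to 0.10. The causes of these changes were not tested. A stricter detection limit and another spread prior were chosen after seeing the data. Signal near background limits what the dimmer genes can show.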
